A study of Mus musculus with 27 samples.

Results

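The genes described here are the fibroblast growth factor (FGF) ligands, their 4 receptors, and the genes through which the ERK kinase cascade is known to limit and carry out its own signal. They were taken from the 3 deposited count tables by gene symbol: every Fgf gene apart from Fgf5 and Fgf8, Fgfr1 to Fgfr4, the Sprouty genes, the Spred genes, Dusp4, Dusp5, Dusp6, Etv4 and Etv5. The rule names symbols and sets no threshold on a measured value. In all, 35 of the 27080 genes in the tables were members, 34 in each table, with Fgf6 listed only in the table of embryoid bodies (EBs) and Fgf16 only in the tables of the knockdowns (KDs). They comprised 13 paracrine ligands, 3 endocrine ligands, 4 intracellular FGF homologues, 4 receptors, 3 Sprouty genes, 3 Spred genes, 3 phosphatases and 2 ETS transcription factors. Spry3, which the rule also names, was listed in none of the 3 count tables.

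A secreted FGF binds a receptor tyrosine kinase together with heparan sulphate, and the activated receptor signals through the adaptors Frs2, Grb2 and Gab1, Ras and Raf to the kinases ERK1 and ERK2. ERK signalling switches on genes for its own inhibitors, which is why Sprouty, Spred and Dusp6 transcripts are widely used as readouts of the pathway, as are those of the ETS factors Etv4 and Etv5. In mouse embryonic stem cells (mESCs), Fgf4 made by the cells themselves acts mainly through Fgfr1 and prepares them to leave the pluripotent state.

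J1 cells, an established line of mESCs grown on gelatin without feeder cells in serum and leukemia inhibitory factor (LIF), were used for RNA-seq. Lentivirus delivered an shRNA against Gas41, either shGas41-1 (sequenced as 3 libraries) or shGas41-2 (as 2), or an shRNA with no target (shNT, as 3), and the cells were selected with puromycin and harvested 8 days after infection. The other libraries came from cells that also carried the control vector, either kept with LIF on gelatin (EB day 0, 2 libraries, replicates 2 and 3) or grown as EBs without LIF in low-attachment plates (EB day 6, 2 libraries, replicates 2 and 3). The study's methods give 2 or more biological repeats for all experiments, but the labels do not say whether these replicates were separate cultures. The p-values therefore measure only the spread between these libraries, and the culture set cannot be told apart from the difference between EB day 0 and shNT.

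Gas41, encoded by Yeats4, is a chromatin reader shared by complexes that deposit the histone variant H2A.Z. The sites of the shRNAs on the Yeats4 transcript are shown because each KD rests on 1 of them, here in lower case throughout. The first lies in the untranslated part of an exon at chr10:116652513-116652533 and the second in coding sequence at chr10:116659320-116659340 (mm9, minus strand).
shGas41-1: gtagcattccacgacgttaag
shGas41-2: atcgttaagccaatcgtttat
Yeats4 was at 61.2, 53.1 and 50.9 CPM (counts scaled to library size) in the shNT libraries, 3.46, 4.38 and 5.1 CPM with shGas41-1, and 8.81 and 7.95 CPM with shGas41-2. It fell by 3.66 on the log2 scale with shGas41-1 (SE 0.19, FDR 0.000375) and by 2.71 with shGas41-2 (SE 0.13, FDR 0.000934). The libraries held between 59224537 and 81524773 counts, and the level that 3 counts gave lay between 0.0373 and 0.0493 CPM, a floor for counting error only. The library of shGas41-1 replicate 3 stood apart from the others of its group: counts of this library differed from those of replicates 1 and 2 with a chi-square of 144 and 236 per degree of freedom, against 29.2 to 81.3 for every other pair of the same group. Of 7 pluripotency markers, 3 fell with shGas41-1 (Klf4, Esrrb and Tfcp2l1) and 1 with shGas41-2 (Klf4), while 7 fell in EBs. Among all genes tested, 7.73%, 3.97% and 28.4% fell in turn. Klf4 had a log2 fold change of -1.13 with shGas41-1 (FDR 0.00554) and -0.65 with shGas41-2 (FDR 0.0412). The sum of the 7 pluripotency markers was between 5420 and 5950 CPM in the undifferentiated control libraries, 4690 to 5560 CPM with shGas41-1, 5530 to 5610 CPM with shGas41-2, and 1280 and 1610 CPM at EB day 6. Of 3 neural markers tested, 2 rose with shGas41-1 (Neurog1 and Pax6) and 1 with shGas41-2 (Neurog1), where 10.8% and 5.94% of all genes tested rose. Neurog1, a neuronal determination factor, was at most 0.0327 CPM in shNT, between 0.444 and 1.12 CPM with shGas41-1 (FDR 0.00346) and 0.199 and 0.336 CPM with shGas41-2 (FDR 0.025). Its shNT levels lay below the 3-count floor. It thus passed the filter on counts only through the KD libraries, and its tests could show only a rise. Esrrb, Tfcp2l1 and Pax6 are named after their values were seen, and the part of these markers in the members' levels was not tested. In EBs primitive streak and mesoderm markers went from sums of 9.5 and 10.1 CPM at EB day 0 to 854 and 1360 CPM at day 6, with 5 of 5 tested markers up. Of all genes tested in EBs, 30.5% rose. The streak marker Mesp1 passed the filter on counts only through the day 6 libraries. Since EBs hold several cell types, in bulk RNA fewer cells of a type and less RNA per cell cannot be told apart. Fibroblast markers, which feeder cells would carry, summed to at most 13.5 CPM in any library.

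Levels were first compared between genes per length, as CPM per kb of exon. In shNT cells the members with the highest levels were Etv5 at 101 CPM per kb, Fgf4 at 50.0, Etv4 at 49.8, Spry4 at 43.9, Spry2 at 40.2 and Dusp6 at 35.1, all of them above the level of 92.1% of the genes in the table. Etv5 and Fgf4 were thus among the more abundant transcripts of the undifferentiated cells, and the ranges of Fgf4, Etv4 and Spry4 met one another, so their order was not resolved. The most abundant receptor, Fgfr1, stood at 8.43 CPM per kb and Fgf17 at 25.4. At EB day 6 the order was different: Dusp6 led with 141 CPM per kb, followed by Spry2 at 79.4, Etv5 at 79.1, Dusp4 at 61.0 and Fgfr1 at 26.1, and Fgf4 was no longer among the first 12.

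Not all ligands were detected. Fgf2, Fgf6, Fgf7, Fgf16, Fgf20 and Fgf21 passed the filter on low counts in no comparison, and none of them exceeded 0.124 CPM in any library. Fgf9, a ligand of epithelium and gonad, reached at most 0.56 CPM, Fgf22 at most 0.229 and Fgf23, a hormone of phosphate balance, at most 0.213. These genes were measured at or near the 3-count floor in many libraries, and nothing below that floor was detectable at this depth. In the KD comparisons 26 members were tested, and 28 in the EB comparison.

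With shGas41-1, 5 of the 26 tested members passed an FDR of 0.05, of which 3 rose and 2 fell, beside 18.5% of all genes tested (10.8% up and 7.73% down). With shGas41-2, 4 of 26 passed, 3 up and 1 down, beside 9.91% of all genes (5.94% up and 3.97% down). These shares lie close to the background, so in the KDs the count itself is no result about the members. At a fold of 2 or more as well, 2 were up and 1 down with shGas41-1 (7.9% and 2.4% of all genes), and 3 were up and 1 down with shGas41-2 (3.96% and 0.869%). Dusp4 and Fgfr2 were the members that passed with both shRNAs, and both rose. The KD comparisons share the 3 shNT libraries, so this is not evidence from independent controls. At EB day 6, by contrast, 23 of 28 tested members passed, 16 up and 7 down, beside 58.9% of all genes tested (30.5% up and 28.4% down), and 14 were up and 6 down at a fold of 2 or more (16.6% and 14.7% of all genes). The members up in EBs include Fgf12 and Fgf14, which passed the filter on counts only through the day 6 libraries. Over the tested members the log2 fold change had a median of -0.02 and 0.05 in the KDs by the first and second shRNA and of 1.12 in EBs, where the medians of all genes were 0.02, -0.01 and 0.0.

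**Figure D1:**
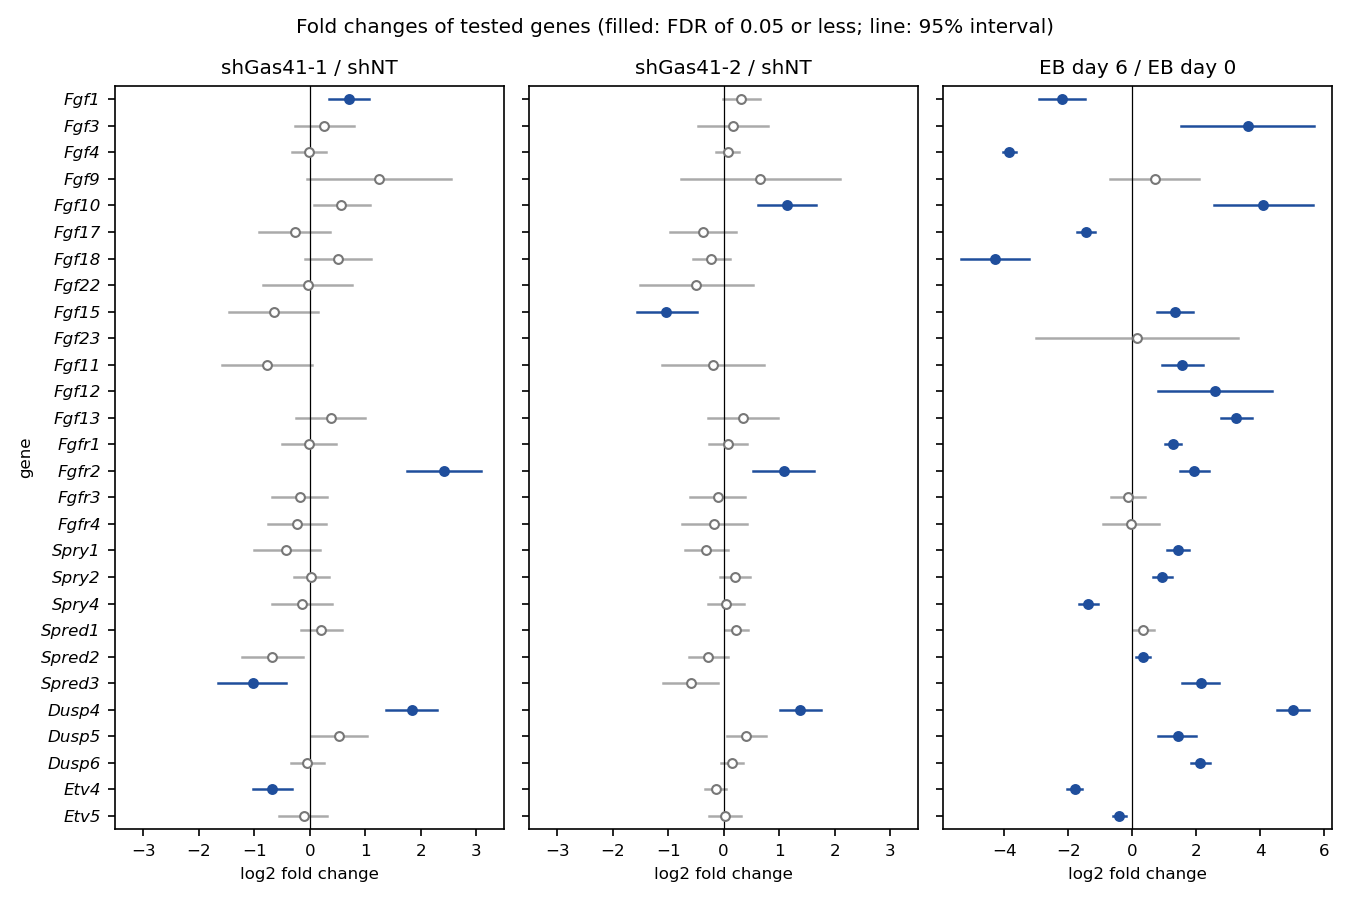
Log2 fold change (x axis) of each tested gene (y axis) in either KD and in EBs, from edgeR's quasi-likelihood test. Points give the estimate, lines the 95% interval, and filled points an FDR of 0.05 or less. Fgf14 is left out because it had no counts at EB day 0. Dusp4 and Fgfr2 lie to the right of 0 in all 3 panels, and the intervals of most other genes cross 0 in the KD panels but not in the EB panel.

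Fgf4 is the main FGF of mESCs and of the epiblast. It was at 149, 157 and 148 CPM in shNT, 155, 167 and 124 CPM with shGas41-1, 154 and 163 CPM with shGas41-2, 197 and 192 CPM at EB day 0, and 13.9 and 13.6 CPM at EB day 6. The day 6 libraries lay far below every other library, while the KD libraries and the shNT libraries overlapped. Fgf4 fell 14.4-fold in EBs (log2 fold change -3.85, SE 0.08, FDR 2.33e-06). In the KDs its log2 fold change was -0.01 (95% interval -0.32 to 0.3) with shGas41-1 and 0.07 (-0.13 to 0.27) with shGas41-2, intervals that hold no change as large as 1.5-fold.

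Fgf17 and Fgf18 belong to the same subfamily as Fgf8 and bind mainly the c isoforms of the receptors. Fgf17 was at 37.6, 55.2 and 36.0 CPM in shNT, between 23.6 and 50.4 CPM in the 5 KD libraries, 36.0 and 31.2 CPM at EB day 0, and 12.7 and 12.2 CPM at EB day 6, a fall of 2.73-fold in EBs (FDR 0.000115). Fgf18 was at 5.82, 5.43 and 6.0 CPM in shNT, 7.07, 11.7 and 5.43 CPM with shGas41-1, 4.58 and 5.24 CPM with shGas41-2, 3.28 and 6.55 CPM at EB day 0, and only 0.212 and 0.289 CPM at EB day 6. Its fall of 19.7-fold (log2 fold change -4.3, SE 0.44, FDR 0.000324) was the steepest among the members. Neither gene passed in a KD, although Fgf18 passed with shGas41-1 once replicate 3 of that group was left out (log2 fold change 0.71, FDR 0.0493). Fgf17 passed with shGas41-2 only with the replicate number as a block in edgeR (-0.51, FDR 4.36e-08). In all such blocked fits of shGas41-2, shNT replicate 3 had no partner of its number. Few libraries were left there to measure the spread, so a small FDR from that block rests on little.

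Fgf1, a ligand without a classical signal peptide that binds all the receptors, moved in opposite directions in the KD with shGas41-1 and in EBs. Its level was 7.21, 6.08 and 6.7 CPM in shNT, 12.4, 10.2 and 9.67 CPM with shGas41-1, 8.99 and 7.56 CPM with shGas41-2, 6.41 and 8.24 CPM at EB day 0, and 2.04 and 1.19 CPM at EB day 6. All 3 shGas41-1 libraries were above all 3 shNT libraries. Fgf1 rose 1.64-fold with shGas41-1 (FDR 0.0166) and fell 4.6-fold in EBs (FDR 0.00107). With shGas41-2 the log2 fold change of 0.32 (95% interval -0.02 to 0.66, FDR 0.196) did not pass, except with the replicate number as a block in edgeR (FDR 0.0112). The rise with shGas41-1 lost its call without shGas41-1 replicate 1 (FDR 0.0744), shNT replicate 2 (0.0907) or shNT replicate 3 (0.0641), and the fall in EBs without EB day 0 replicate 3 (0.0565).

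Fgf3 and Fgf10 are ligands of the subfamily that acts on the epithelial isoform of Fgfr2. Fgf3 stood between 1.17 and 2.12 CPM in all 10 libraries other than EB day 6, where it reached 4.7 CPM in replicate 2 and 33.8 CPM in replicate 3. Fgf10 was at 1.59, 1.48 and 1.71 CPM in shNT, 1.95, 2.94 and 2.11 CPM with shGas41-1, 2.74 and 4.24 CPM with shGas41-2, 1.47 and 1.2 CPM at EB day 0, and 9.47 and 37.2 CPM at EB day 6. Both rose in EBs, Fgf3 12.2-fold (FDR 0.0118) and Fgf10 17.1-fold (FDR 0.00204), but the day 6 libraries differed from each other by 7.19-fold for Fgf3 and 3.93-fold for Fgf10. No more than 0.0547% and 0.334% of the genes tested lay as far apart as this between these libraries. The log2 fold change of Fgf3 was 3.61, but 1.59 without EB day 6 replicate 3 and 4.42 without replicate 2, and that of Fgf10 was 4.1, but 2.81 and 4.77. Without EB day 0 replicate 2 or 3 the adjusted p of Fgf3 was 0.083 or 0.206, and without EB day 0 replicate 3 that of Fgf10 was 0.103. Fgf10 also rose 2.2-fold with shGas41-2 (FDR 0.0239), a call that was lost without shGas41-2 replicate 2 (FDR 0.204) or shNT replicate 2 (0.0892) and in 1 fit of all 12 libraries (0.136). With shGas41-1 its log2 fold change was 0.57 (95% interval 0.07 to 1.08, FDR 0.105). The antisense transcript Gm16263 covers 2.67% of its exon bases.

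Fgf15, the mouse counterpart of the gut hormone FGF19, was at 8.55, 11.6 and 13.4 CPM in shNT, 5.36, 11.5 and 4.21 CPM with shGas41-1, 4.42 and 6.52 CPM with shGas41-2, 6.79 and 10.6 CPM at EB day 0, and 19.3 and 25.3 CPM at EB day 6. It fell 2.04-fold with shGas41-2 (FDR 0.0359) and rose 2.53-fold in EBs (FDR 0.00322). The EB day 0 library at 6.79 CPM lay close to the higher shGas41-2 library. The fall with shGas41-2 was lost when shGas41-2 replicate 1 (FDR 0.218) or replicate 2 (0.0716), or shNT replicate 2 (0.102) or 3 (0.0523), was left out, and in 1 fit of all 12 libraries (0.122), and with shGas41-1 Fgf15 passed (log2 fold change -1.19, FDR 0.0124) only without replicate 2 of that group. Since 26.4% of its exon bases overlap the antisense transcript Gm17685 and the strand setting of the counting is not given in the sources used here, reads of the 2 genes may not have been told apart there.

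Fgf3, Fgf4 and Fgf15 are neighbours on mm9 chromosome 7. The cluster spans 62.9 kb from the start of Fgf3 to the end of Fgf15 (chr7:152023988-152086858), all 3 genes lie on the plus strand, and 0 other protein-coding genes are annotated inside. Fgf3 starts 23.3 kb before Fgf4, and Fgf15 starts 35.1 kb after the start of Fgf4. In EBs the middle gene fell while the genes on either side of it rose. The 250 bases before the RefSeq starts of Fgf3 (chr7:144838362-144838611) and Fgf4 (chr7:144861136-144861385, both GRCm38.p6, plus strand) are shown because these neighbours moved in opposite directions, and a window for Fgf15 was not used here. Capitals mark a match to the ETS motif CNGGAAG or to the GC box GGGCGG, searched on both strands, where matches of different motifs may overlap.
Fgf3: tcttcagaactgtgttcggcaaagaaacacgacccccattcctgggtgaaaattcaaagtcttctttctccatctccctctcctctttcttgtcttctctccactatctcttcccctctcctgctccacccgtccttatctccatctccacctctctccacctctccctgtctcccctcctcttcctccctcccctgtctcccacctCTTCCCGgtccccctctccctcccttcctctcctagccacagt
Fgf4: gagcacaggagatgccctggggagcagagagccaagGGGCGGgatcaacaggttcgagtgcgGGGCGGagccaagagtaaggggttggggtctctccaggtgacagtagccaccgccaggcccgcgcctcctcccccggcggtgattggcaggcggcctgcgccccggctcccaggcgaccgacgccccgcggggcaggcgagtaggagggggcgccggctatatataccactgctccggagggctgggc
The Fgf4 window held 2 GC boxes, no ETS match and 71.2% G and C, and the Fgf3 window held 1 ETS match, no GC box and 55.2% G and C. RefSeq windows were found for 26 of the 35 members (34 windows). The GC box was present in 64.7% of these windows, in 53.6% of the windows of all tested genes and in 32.7% of all 32851 windows. ETS matches were present in 17.6%, 31.3% and 26.6% respectively, the TATA box TATAAA in 2.94%, 7.01% and 12.4%, and the cAMP response element TGACGTCA in 0.0%, 2.4% and 1.55%. A match is a description of the letters and not a bound site.

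**Figure D2:**
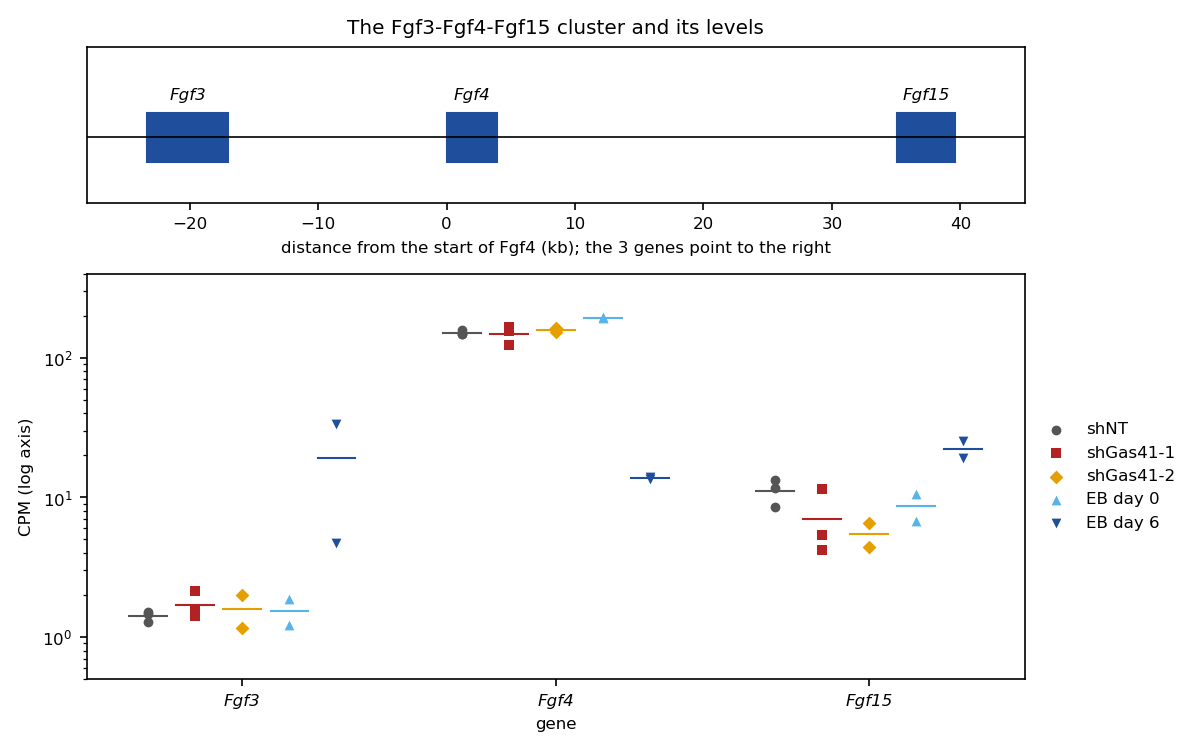
Top, the 3 genes of the cluster by distance in kb from the start of Fgf4. Bottom, CPM on a log axis of each gene in each library (points) with the group mean (line). In EBs Fgf4 drops from 197 and 192 to 13.9 and 13.6 CPM while Fgf3 and Fgf15 rise, and the EB day 6 points of Fgf3 lie far apart.

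Fgf11, Fgf12, Fgf13 and Fgf14 encode homologues that stay inside the cell, bind voltage-gated sodium channels and do not act through the receptors in the classical way. All 4 rose in EBs. Fgf12 and Fgf14 passed the filter on counts only through their EB day 6 libraries, so their tests could show only a rise. Fgf13 was between 0.661 and 1.29 CPM in the 8 shNT and KD libraries and at 0.857 and 0.924 CPM at EB day 0, and it rose 9.6-fold to 9.41 and 7.96 CPM at EB day 6 (FDR 4.92e-05). Fgf11 was at 0.458, 0.661 and 1.04 CPM in shNT, between 0.342 and 0.763 CPM in the KDs, and rose from 0.817 and 0.742 CPM at EB day 0 to 2.63 and 2.08 CPM at day 6 (2.97-fold, FDR 0.00298; 0.0598 without EB day 0 replicate 3). Fgf14 had no counts in either EB day 0 library and was at 0.938 and 0.441 CPM at day 6, at least 9.69-fold higher than the level of 3 counts per library (FDR 0.00202). Fgf12 went from 1 and 5 counts at EB day 0 to 16 and 20 counts at day 6 (FDR 0.022), a call that was lost in DESeq2 (FDR 0.0708) and without EB day 0 replicate 2 (0.133) or EB day 6 replicate 3 (0.0629). In the KDs Fgf11 and Fgf13 were tested and did not pass.

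**Figure D3:**
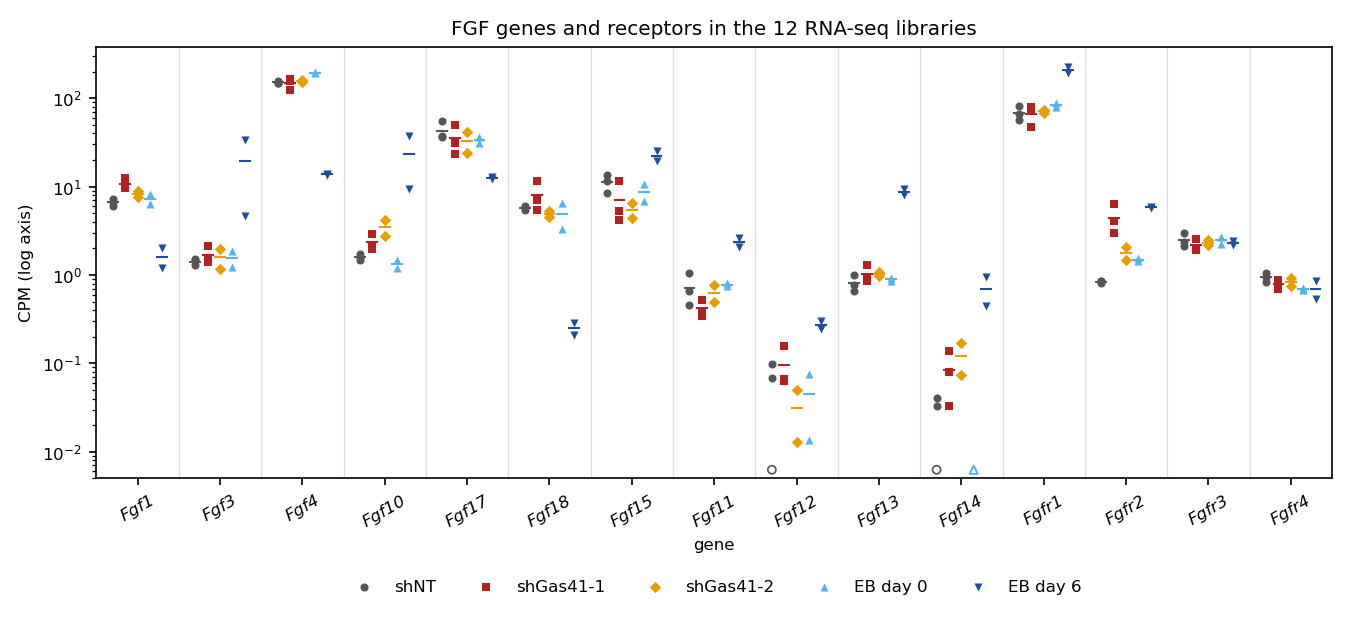
CPM on a log axis (y) of the FGF genes that passed in at least 1 comparison and of the 4 receptors (x), with each library as a point, coloured by group, and the group mean as a line where no library was at 0. Open symbols at the bottom edge are libraries with no counts, of which both EB day 0 libraries of Fgf14 coincide. Fgf4 and Fgf18 lie lowest at EB day 6, and Fgfr2 lies lowest in shNT.

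Among the secreted ligands of the set, levels per length were summed and each gene's share was taken. Fgf4 made up between 52.3% and 68.0% of the sum in the 10 undifferentiated and KD libraries, and Fgf17 between 17.8% and 33.3%. At EB day 6 the share of Fgf4 was 16.5% and 9.1%, that of Fgf15 38.4% and 28.4%, that of Fgf3 7.26% and 29.5%, and that of Fgf10 7.39% and 16.4%. The sum itself went from 95.9 and 96.3 CPM per kb at EB day 0 to 27.8 and 49.2 at day 6. Fgf5 and Fgf8, which the rule leaves out, were at 218 and 195 CPM and at 88.9 and 95.9 CPM at EB day 6. With them included, the summed level per length at day 6 was 181 and 198 CPM per kb, of which Fgf5 held 48.2% and 39.4% and Fgf8 36.4% and 35.8%.

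Fgfr1, the receptor that transmits most Fgf4 signal in mESCs, was at 56.8, 66.0 and 81.1 CPM in shNT, 74.8, 78.6 and 46.7 CPM with shGas41-1, 68.0 and 74.2 CPM with shGas41-2, 89.0 and 80.6 CPM at EB day 0, and 195 and 225 CPM at EB day 6. It rose 2.44-fold in EBs (FDR 0.000108). Its log2 fold change was -0.01 (95% interval -0.49 to 0.47) with shGas41-1 and 0.07 (-0.27 to 0.42) with shGas41-2, where it passed only with the replicate number as a block in edgeR (0.22, FDR 0.00277). Per length it made up between 87.1% and 95.9% of all receptor transcripts in every library. Of its exon bases, 11.0% are shared with a gene entry of the same name and with the antisense transcript Gm16159.

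Fgfr2, the receptor of Fgf3 and Fgf10 in epithelium and of Fgf4 in primitive endoderm and trophoblast, was the receptor that changed in the KDs. It stood at 0.85, 0.859 and 0.809 CPM in shNT, 4.07, 6.29 and 2.98 CPM with shGas41-1, 2.06 and 1.47 CPM with shGas41-2, 1.55 and 1.44 CPM at EB day 0, and 5.91 and 5.8 CPM at EB day 6. All 5 KD libraries were above the shNT libraries, but EB day 0 control cells were above them too, and the lower shGas41-2 library lay between the EB day 0 libraries. Fgfr2 rose 5.36-fold with shGas41-1 (log2 fold change 2.42, SE 0.29, FDR 0.00273), 2.12-fold with shGas41-2 (1.08, SE 0.24, FDR 0.031) and 3.85-fold in EBs (1.94, SE 0.19, FDR 0.000285). Between EB day 0 and shNT its log2 fold change was 0.83 (95% interval 0.2 to 1.47, FDR 0.179), which passed without shGas41-1 replicate 3 (FDR 0.0482). The rise with shGas41-1 passed under all 12 alternatives. The rise with shGas41-2 was lost without shGas41-2 replicate 1 (FDR 0.266) or replicate 2 (0.0823), or without shNT replicate 2 (0.101) or replicate 3 (0.0518). Per length, Fgfr2 made up 1.42%, 1.24% and 0.953% of receptor transcripts in shNT, 5.05%, 7.22% and 5.75% with shGas41-1, 2.85% and 1.9% with shGas41-2, 1.69% and 1.72% at EB day 0, and 2.97% and 2.55% at EB day 6. The annotation gives the gene a span of 3009069 bp (chr7:137305965-140315033, mm9, minus strand), and 4.03% of its exon bases are shared with Ctbp2 on the same strand.

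Markers of trophoblast and primitive endoderm, cell types known for Fgfr2, were set beside this rise. Of the trophoblast markers, 2 of 4 tested rose with shGas41-1 (Gata3 and Cdx2) and 1 fell (Krt8), and 1 of 5 rose with shGas41-2 (Gata3), with a median log2 fold change of 1.78 and 1.56. Marker counts are to be read beside the shares of all genes tested. These were 10.8% up and 7.73% down with shGas41-1, 5.94% and 3.97% with shGas41-2, and 30.5% and 28.4% in EBs. Gata3, a trophoblast transcription factor, went from at most 0.18 CPM in shNT to between 1.06 and 3.2 CPM in the KDs (log2 fold change 4.3 and 3.26, FDR 0.0021 and 0.00279). Cdx2, another such factor, went from at most 0.343 CPM in shNT to between 1.12 and 1.28 CPM with shGas41-1 (log2 fold change 2.5, FDR 0.00776), while shGas41-2 gave a log2 fold change of 1.79 (FDR 0.0681). Gata3 passed the filter on counts only through the KD libraries, so its tests could show only a rise. Cdx2 likewise needed the KD libraries to pass that filter with shGas41-1. Krt8, a keratin of simple epithelia, had a log2 fold change of -0.85 with shGas41-1 (FDR 0.0215). The 5 markers summed to between 18.1 and 24.2 CPM in shNT, 11.8 to 17.9 CPM with shGas41-1 and 16.0 to 20.5 CPM with shGas41-2, and Krt8 alone held between 17.1 and 23.5 CPM of the sum in shNT. In the EB series the sum was 18.3 to 23.6 CPM at day 0 and 90.6 to 174 CPM at day 6, with 4 of 4 tested markers up. Among these, Cdx2 passed the filter on counts only through the day 6 libraries. Cdx2 and Krt8 are named after their values were seen. Primitive endoderm markers summed to between 4.94 and 6.11 CPM in shNT, 6.25 to 9.2 CPM with shGas41-1, 8.48 to 9.74 CPM with shGas41-2, and 7.39 to 8.12 CPM at EB day 0, and 2 of 6 rose with shGas41-1 and 1 of 6 with shGas41-2. At EB day 6 their sum was 79.9 to 258 CPM, with 5 of 6 up and 1 down, while Fgfr2 was at 5.91 and 5.8 CPM. None of these markers was at 0 in a whole group, and their part in the level of Fgfr2 was not tested.

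Fgfr3 and Fgfr4 did not pass in any comparison. Fgfr3 lay between 1.92 and 3.02 CPM in all 12 libraries and Fgfr4 between 0.532 and 1.05 CPM. In EBs the log2 fold change was -0.13 (95% interval -0.67 to 0.41) for Fgfr3 and -0.04 (-0.91 to 0.84) for Fgfr4.

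**Figure D4:**
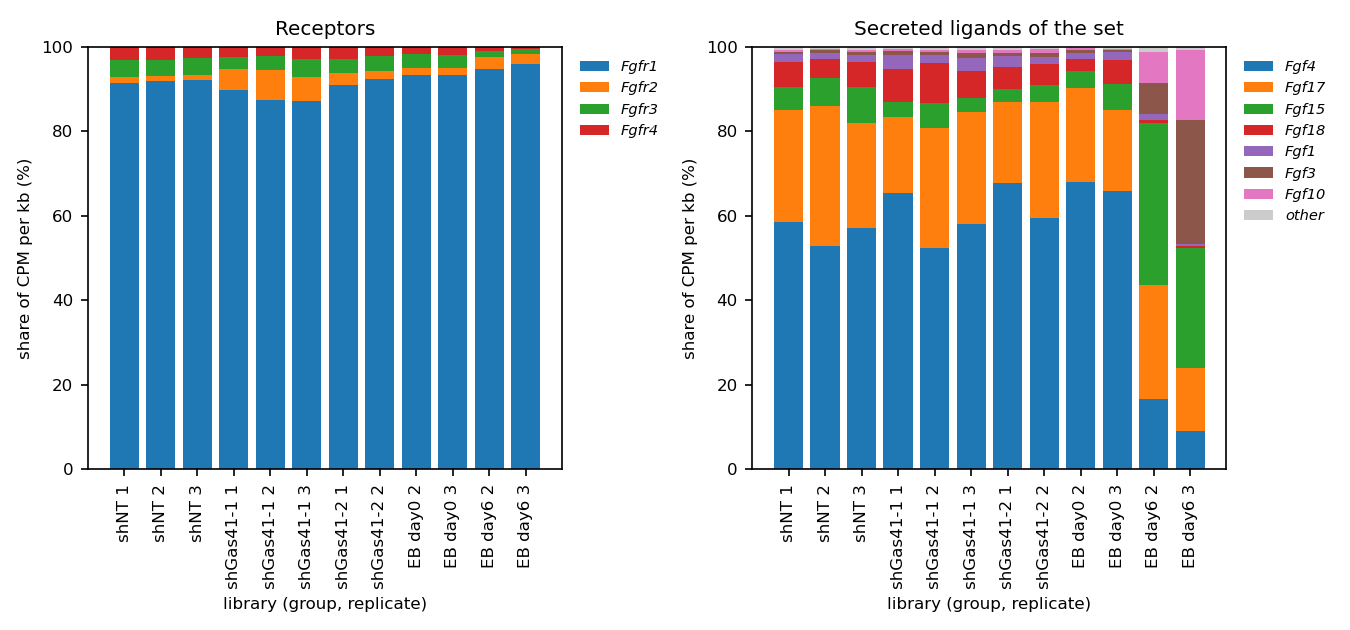
Share of the summed CPM per kb (y axis, in %) of each receptor (left) and of each secreted ligand of the set (right) in each library (x axis, group and replicate). Fgfr1 fills most of every bar on the left, with the widest band of Fgfr2 in the shGas41-1 libraries, and on the right Fgf4 gives way to Fgf15, Fgf3 and Fgf10 in the EB day 6 libraries.

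The 11 feedback genes and ETS factors were tested in every comparison. With shGas41-1, 1 rose (Dusp4) and 2 fell (Spred3, Etv4), with shGas41-2 only Dusp4 passed, and in EBs 7 rose and 3 fell, beside 18.5%, 9.91% and 58.9% of all genes that passed in these comparisons in turn. Their median log2 fold change was -0.11, 0.04 and 0.94 in turn. Within shGas41-1, the library of replicate 3 was the lowest for 11 of 11 of these genes and 20 of the 26 tested members, while it was lowest for 43.4% of all genes tested, and the median of its log2 ratio to the mean of the other 2 libraries of its group was -0.66 over the 11 genes and -0.03 over all genes. Without that library 8 members passed with shGas41-1: the 5 named above and Fgf18, Spred1 and Dusp5.

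Dusp4 encodes a nuclear phosphatase that inactivates ERK and other MAP kinases. It was at 5.17, 4.01 and 5.37 CPM in shNT, 19.7, 18.8 and 12.9 CPM with shGas41-1, 11.8 and 13.4 CPM with shGas41-2, 4.59 and 5.53 CPM at EB day 0, and 137 and 197 CPM at EB day 6. The KD libraries were above all 5 libraries of undifferentiated control cells, and the day 6 libraries were higher by far. Dusp4 rose 3.58-fold with shGas41-1 (log2 fold change 1.84, SE 0.2, FDR 0.00251), 2.61-fold with shGas41-2 (1.38, SE 0.16, FDR 0.00293) and 32.6-fold in EBs (5.03, SE 0.21, FDR 1.2e-05). It passed under all 12 alternatives with shGas41-1, all 11 with shGas41-2 and all 10 in EBs.

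Dusp6, a cytoplasmic phosphatase specific for ERK, did not follow Dusp4 in the KDs. It was at 98.4, 100.0 and 96.4 CPM in shNT, 99.8, 103 and 80.5 CPM with shGas41-1, 105 and 112 CPM with shGas41-2, 79.6 and 97.9 CPM at EB day 0, and 368 and 419 CPM at EB day 6. The KD and shNT libraries overlapped with shGas41-1, and the log2 fold change was -0.04 (95% interval -0.33 to 0.26) with shGas41-1 and 0.15 (-0.05 to 0.35) with shGas41-2. In EBs Dusp6 rose 4.37-fold (FDR 3.72e-05). Dusp5, a nuclear ERK phosphatase, was at 6.18, 5.95 and 7.82 CPM in shNT, 11.4, 10.3 and 6.61 CPM with shGas41-1, 8.9 and 8.74 CPM with shGas41-2, 4.95 and 7.45 CPM at EB day 0, and 13.9 and 19.7 CPM at EB day 6. It rose 2.67-fold in EBs (FDR 0.00314). Its log2 fold change was 0.53 with shGas41-1 (FDR 0.124, or 0.0194 without shGas41-1 replicate 3) and 0.41 with shGas41-2 (FDR 0.127, or 0.0399 without shNT replicate 3). With the replicate number as a block in edgeR, Dusp5 passed with shGas41-2 (0.55, FDR 2.99e-05).

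Sprouty proteins block the path from receptor to ERK, and the 3 genes behaved differently from one another in EBs. Spry1 was between 5.61 and 14.1 CPM in the 10 other libraries and at 29.4 and 24.5 CPM at EB day 6, a rise of 2.71-fold (FDR 0.000263). Spry2 was between 72.7 and 103 CPM in those libraries and rose 1.92-fold to 184 and 148 CPM (FDR 0.00103). Spry4 fell 2.58-fold (FDR 0.000236): it was at 167, 208 and 228 CPM in shNT, 197, 228 and 116 CPM with shGas41-1, 191 and 219 CPM with shGas41-2, 191 and 223 CPM at EB day 0, and 72.2 and 90.6 CPM at EB day 6. In the KDs 0 of the 3 passed in edgeR without a replicate block, 0 had an unadjusted p under 0.05 (as 35.0% and 28.3% of all genes did) and 0 passed in DESeq2, with log2 fold changes between -0.42 and 0.2. With the replicate number as a block in edgeR, Spry2 (log2 fold change 0.28, FDR 0.000109) and Spry4 (0.14, FDR 0.0309) passed with shGas41-2.

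Spred proteins bring the Ras inhibitor neurofibromin to the membrane. Spred3 was at 3.37, 4.91 and 5.21 CPM in shNT, 2.11, 2.88 and 1.5 CPM with shGas41-1, 3.05 and 2.9 CPM with shGas41-2, 5.56 and 4.26 CPM at EB day 0, and 26.3 and 17.6 CPM at EB day 6. Every KD library was below every library of undifferentiated control cells. Spred3 fell 2.05-fold with shGas41-1 (FDR 0.0317) and rose 4.4-fold in EBs (FDR 0.000464). With shGas41-2 its log2 fold change was -0.59 (95% interval -1.09 to -0.1, FDR 0.117, or 0.0106 without shNT replicate 1 and 0.0111 with the replicate number as a block in edgeR). The fall with shGas41-1 lost its call without shGas41-1 replicate 1 (FDR 0.101), shNT replicate 2 (0.108) or shNT replicate 3 (0.104). Spred2 was at 64.5, 59.7 and 82.0 CPM in shNT, 53.0, 48.1 and 26.8 CPM with shGas41-1, 60.2 and 52.4 CPM with shGas41-2, 73.3 and 73.0 CPM at EB day 0, and 88.2 and 100.0 CPM at EB day 6. Its log2 fold change with shGas41-1 was -0.67 (95% interval -1.22 to -0.12) with an FDR of 0.0867 in edgeR, 0.0415 in DESeq2 and 0.0301 in 1 edgeR fit of all 12 libraries, and its rise of 1.27-fold in EBs (FDR 0.0145) did not pass without EB day 0 replicate 2 (0.0991) or replicate 3 (0.129) or in 1 fit of all 12 libraries (0.26). Spred1, between 68.2 and 109 CPM in the 10 libraries, was at 117 and 155 CPM at EB day 6 (log2 fold change 0.35, 95% interval 0.03 to 0.67, FDR 0.0612), and it passed without EB day 6 replicate 2 (0.54, FDR 0.000207). With shGas41-1 it passed only without replicate 3 of that group (0.36, FDR 0.0345), and with shGas41-2 only with the replicate number as a block in edgeR (0.27, FDR 0.000181).

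Etv4 and Etv5 are ETS factors whose transcripts depend on FGF signalling in many tissues. Etv4 was at 154, 156 and 153 CPM in shNT, 105, 108 and 73.9 CPM with shGas41-1, 138 and 141 CPM with shGas41-2, 141 and 141 CPM at EB day 0, and 38.1 and 43.9 CPM at EB day 6. Its spread within shNT and within EB day 0 was small, and the shGas41-1 libraries lay between those of the control cells and those of EB day 6. Etv4 fell 1.59-fold with shGas41-1 (FDR 0.0212) and 3.49-fold in EBs (FDR 2.38e-05). With shGas41-2, whose levels met those of EB day 0, the log2 fold change was -0.14 (95% interval -0.33 to 0.05). There Etv4 passed only with the replicate number as a block in edgeR (-0.15, FDR 0.0226). The fall with shGas41-1 lost its call without shGas41-1 replicate 1 (FDR 0.0569), shNT replicate 2 (0.081) or shNT replicate 3 (0.0609). Etv5 was at 357, 432 and 458 CPM in shNT, 410, 455 and 273 CPM with shGas41-1, 392 and 452 CPM with shGas41-2, 419 and 426 CPM at EB day 0, and 332 and 317 CPM at EB day 6. It fell 1.32-fold in EBs (FDR 0.00491), a call that was lost without EB day 0 replicate 3 (FDR 0.0652) and in 1 fit of all 12 libraries (0.139). In the KDs its log2 fold change was -0.11 (95% interval -0.55 to 0.32) and 0.03 (-0.26 to 0.31).

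**Figure D5:**
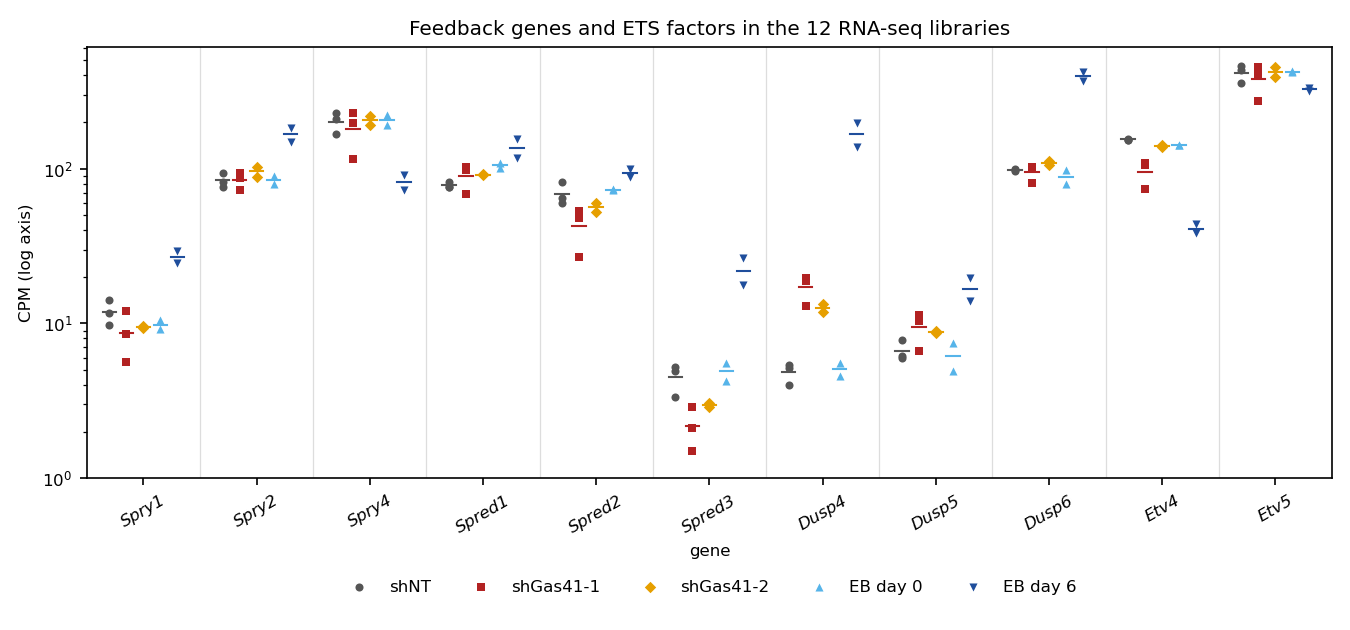
CPM on a log axis (y) of the 11 feedback genes and ETS factors (x), with each library as a point, coloured by group, and the group mean as a line. Dusp4 lies between 11.8 and 19.7 CPM in the 5 KD libraries and between 4.01 and 5.53 CPM in the undifferentiated control libraries, and at EB day 6 Dusp6 and Spry2 lie above while Spry4 and Etv4 lie below every other library.

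Other genes of the pathway were taken from lists. Of 21 tested genes that carry the signal from receptor to ERK, 2 passed with shGas41-2 (Gab1 and Mapk3, down) and both of these also fell with shGas41-1, while 12 rose and 5 fell in EBs, beside 9.91% of all genes that passed with shGas41-2 and 58.9% in EBs. Gab1, the adaptor that links receptors to Shp2 and PI3-kinase, was at 450.0, 478 and 464 CPM in shNT, 139, 207 and 84.6 CPM with shGas41-1, 304 and 332 CPM with shGas41-2, 533 and 532 CPM at EB day 0, and 106 and 77.3 CPM at EB day 6. Its log2 fold change was -1.67 with shGas41-1 (FDR 0.00573), -0.54 with shGas41-2 (FDR 0.011) and -2.56 in EBs (FDR 4.41e-05), and the KD libraries did not overlap with those of undifferentiated control cells. Mapk3, the gene of ERK1, fell in the KDs (log2 fold change -0.84 and -0.79, FDR 0.0365 and 0.0468) and rose in EBs (1.34, FDR 5.71e-05), but EB day 0 cells at 30.6 and 33.9 CPM overlapped the KD range of 17.6 to 31.6 CPM. The median log2 fold change of this list was -0.14, -0.17 and 0.37 in the 3 comparisons.

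Among 16 coreceptors and modulators of FGF binding, 3 rose and 1 fell with shGas41-1, 1 rose with shGas41-2, and 8 of 15 tested rose and 2 fell in EBs, where the shares of all genes that passed were 18.5%, 9.91% and 58.9%. Flrt2, a membrane protein of a family that binds FGF receptors, rose with both shRNAs (log2 fold change 1.54 and 1.42, FDR 0.00361 and 0.01), from 1.21, 1.69 and 1.13 CPM in shNT to between 3.34 and 4.21 CPM in the KDs. It was at 1.99 and 2.14 CPM at EB day 0 and at 1.53 and 1.69 CPM at day 6 and did not pass in EBs (log2 fold change -0.38, FDR 0.199). Of the immediate early genes that ERK switches on within minutes, 9 were tested in each KD, where 1 rose and 1 fell with shGas41-1 and 1 rose with shGas41-2, and in EBs 5 of 11 rose and 1 fell, to be read beside the same shares. Egr2 and Egr3, which rose in EBs, passed the filter on counts there only through the day 6 libraries, so these tests could show only a rise. Of 8 other ERK phosphatases and ETS factors, 0 passed in either KD in edgeR. An unadjusted p under 0.05 was found for 3 and 1 of them, beside 35.0% and 28.3% of all genes, and a call by DESeq2 for 1 and 0. In EBs 4 rose and 1 fell, beside 30.5% and 28.4% of all genes.

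The shRNAs were then compared with each other. Of 27 members tested, 0 passed in edgeR, where 0.0% of all genes did, 5 had an unadjusted p under 0.05 (Fgf1, Fgf18, Fgfr2, Dusp4 and Etv4, beside 7.04% of all genes), and 1, Fgfr2, passed in DESeq2 (FDR 0.0108). Fgfr2 was higher with shGas41-1 by 1.35 on the log2 scale (95% interval 0.65 to 2.04, FDR 0.292 in edgeR), and Etv4 differed by -0.52 (-0.88 to -0.17, FDR 0.477). Fgf1, Fgf10, Fgf15, Spred3 and Etv4 passed with 1 shRNA only, but were thus not shown to differ between the shRNAs. Between the undifferentiated control cells, EB day 0 and shNT, 0 of 29 members passed in edgeR and 0 in DESeq2, beside 0.387% of all genes, and 4 had an unadjusted p under 0.05 (Fgf4, Fgf9, Fgfr2 and Spred1, beside 17.9% of all genes). Fgf4 was higher at EB day 0 by 0.36 (95% interval 0.1 to 0.63, FDR 0.169).

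Finally, the mean effect of the KDs was compared with that of EB differentiation, in a fit of all 12 libraries in which the effects share no library. The difference passed for 20 of 29 members, 6 higher and 14 lower in the KDs than in EBs, beside 46.0% of all genes tested (23.0% in each direction). The log2 effect of the KDs was higher by 3.85 for Fgf4 (SE 0.18, FDR 5.98e-08), 4.41 for Fgf18 and 1.36 for Etv4, and lower for Dusp4 (-3.45, SE 0.29, FDR 3.04e-06), Dusp6 (-2.11, SE 0.18, FDR 3.11e-06), Fgf13 (-2.94) and Fgfr1 (-1.29). Dusp4 therefore rose in both settings but by unequal amounts. Fgfr2 did not pass (-0.23, 95% interval -1.06 to 0.61, FDR 0.666). Spred3 differed by -2.98 (FDR 5.46e-05), with a fall in 1 KD and a rise in EBs.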

How the data were processed

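Per the labels and the study's methods, RNA was prepared with a TruSeq RNA kit. The authors aligned reads to the genome (mm9) and transcriptome of the mouse by TopHat2 (2.0.10 in the submitters' notes) and deposited raw counts per gene from htseq-count, without normalization. The deposited log2 fold changes, p-values and FDR are the authors' own comparisons and were not used. Columns named ESC were read as EB day 0. ChIP-seq was not used here.

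Counts were tested here in R 4.3.3 with edgeR 4.0.16: filterByExpr (minimum count 10, minimum total 15), TMM scaling, and the quasi-likelihood test with Benjamini-Hochberg adjustment (FDR) over all genes tested. Genes passed at an FDR of 0.05 or less, and those counted as called up or called down also changed 2-fold or more. Where a single gene lost or gained a call, or was called by DESeq2, a pass at this FDR is meant, whatever the fold. "Rose" and "fell" are used of genes that passed. Each KD and EB day 6 was fitted with its control alone, the shRNA comparison over 8 libraries and the others over all 12. CPM used TMM factors over all 12 libraries (0.9395 to 1.046). Lengths came from GENCODE vM1 on mm9, known for 99.4% of genes. Every receptor, Sprouty, Spred, Dusp and Etv gene was named, with ligands that passed once or were among the 5 most abundant, and outside genes of the lists that passed with both shRNAs. The members and lists were chosen with earlier results of these data known. The count of the signal transduction list with shGas41-1 is not reported here. Alternatives included DESeq2 1.42.0, other scalings, no filter and each library left out. Scripts were tested on simulated data.

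Replicate numbers were not used to pair the samples. Between libraries of the same number, the correlation of deviations from group means was 0.005, 0.145 and -0.387 for shGas41-1 and shNT, and 0.055 in EBs. It was 0.336 and 0.239 for shGas41-2 and shNT, so a pairing by number was not excluded there.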

Additional observations from a re-analysis of the deposited data

How the results depend on the processing

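Over 2042 values of single genes under the alternatives, 1952 stayed on the same side of an FDR of 0.05 (84 of them, none past it, with a change of sign), 65 lost their call, 25 gained one and 0 changed the direction of a call. The count of members that passed with shGas41-1 (5) lay between 2 and 8 as each library was left out, and that called down (1) between 0 and 2; at a fold of 1.5, 2 were called down. With shGas41-2 the count (4) lay between 1 and 5, that called up (3) between 1 and 3, and that called down (1) between 0 and 1. In 1 fit of all 12 libraries 2 members passed with shGas41-2 and 0 were called down. DESeq2 called 1 member between the shRNAs. Between EB day 0 and shNT the count lay between 0 and 3. The cause of these shifts was not tested. With the replicate number as a block, 2 members passed with shGas41-1 and 0 were called down, and 13 passed with shGas41-2 with 0 called down. The members added with shGas41-2 were Fgf1, Fgf17, Fgfr1, Spry2, Spry4, Spred1, Spred3, Dusp5 and Etv4. Whether the numbers pair these samples is not known, so neither fit was shown to be the right one. In the blocked fit of shGas41-2, shNT replicate 3 had no partner of its number, so few libraries were left to measure the spread. The block left no other count moved by over 1.5 times. Groups of 2 or 3 libraries limit the precision, and members below 1 CPM rest on few counts. Where a library was left out of a group of 2, the lone library was assumed to vary like the other group.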
